A study of Homo sapiens with 6 samples.

Results

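The genes described here are the cyclins, kinases and kinase inhibitors that set the passage from G1 into S phase: the D-type cyclins CCND1, CCND2 and CCND3, the E-type cyclins CCNE1 and CCNE2, the kinases CDK2, CDK4 and CDK6, and the inhibitors CDKN1B and CDKN2C. They were chosen by name, with earlier results of these data known, and are 10 of the 60658 Ensembl identifiers that each library lists. All 10 were matched and had a value above 0 in all 6 libraries. Levels are given as FPKM, which scales fragments to the length of the transcript and the size of the library, so that genes of different length can be set side by side.

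The 2 prostate cancer cell lines that were compared, both resistant to enzalutamide, were C4-2B MDVR, a derivative of C4-2B selected under the drug, and CWR22Rv1, from a xenograft that had relapsed after castration. Cultures of each line were held for 48 h in DMSO, in apoptozole (APO) at 10 µM or in VER155008 (VER) at 10 µM, and 1 library was made from each of the 6 conditions. Both compounds block the ATPase of the chaperone HSP70, and the comparison asks which gene programs respond to them. The study maintained C4-2B MDVR in medium with 20 µM enzalutamide and names no such medium for CWR22Rv1. Its methods do not say whether the drug was present during the 48 h. The line and any enzalutamide in the medium therefore cannot be told apart. The label for cell type reads parental for the C4-2B libraries, while their titles name C4-2B MDVR, which was used.

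With 1 library a condition no difference below has a replicate check, and no p-value or SD can be given. The APO and VER comparisons of a line share its DMSO library and are therefore not independent of each other. Differences are differences of log2(FPKM + 0.1), which understate the change of low genes, and a gene is called higher or lower past 1.2-fold, a log2 difference of 0.263. In bulk RNA, fewer cells in a phase of the cycle and less RNA per cell cannot be told apart.

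The libraries ranged in relative depth from 1 to 1.67 with the C4-2B MDVR DMSO library set to 1, and listed 17603 to 19376 genes above 0.1 FPKM. The luminal prostate markers KLK2, KLK3, HOXB13, KRT8 and KRT18 were above 0.1 FPKM in every library, and of 3 basal markers KRT5 and TP63 were listed at 0 in all, while KRT14 reached at most 0.101 FPKM, in C4-2B MDVR with VER. Summed neuroendocrine markers lay between 0.276 and 0.932 FPKM in C4-2B MDVR and between 44.8 and 72.6 FPKM in CWR22Rv1, a difference that moves with the line. The CWR22Rv1 APO library stood apart in its mitochondrial share, 10.4% of the summed FPKM against 25.7% in the other libraries of that line. The part of either in the results below was not tested beyond the rescaling described with them.

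D-type cyclins pair with CDK4 and CDK6, and E-type cyclins with CDK2, and both kinase pairs phosphorylate the RB protein, which then releases E2F factors to transcribe the genes of DNA replication. E2F also transcribes E-type cyclins and CDK2, so that the switch feeds itself. CDKN1B (p27) binds and blocks cyclin-CDK2 complexes, and CDKN2C (p18) binds CDK4 and CDK6 in place of their cyclins.

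With either inhibitor the E-type cyclins and CDK2 stood lower in both lines, CCND3 and CDKN2C also stood lower, and CDKN1B stood higher, though within 1.2-fold in C4-2B MDVR with VER. CCNE2 had the largest difference of the 10 genes in each comparison, from 2.26-fold lower in CWR22Rv1 with VER to 7.64-fold lower in C4-2B MDVR with VER. CCND1 differed between the lines: it was 3.36-fold lower with APO and 2.07-fold lower with VER in C4-2B MDVR, and within 1.2-fold of DMSO in CWR22Rv1, where it was the most abundant of the 10 in every library.

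**Figure D1:**
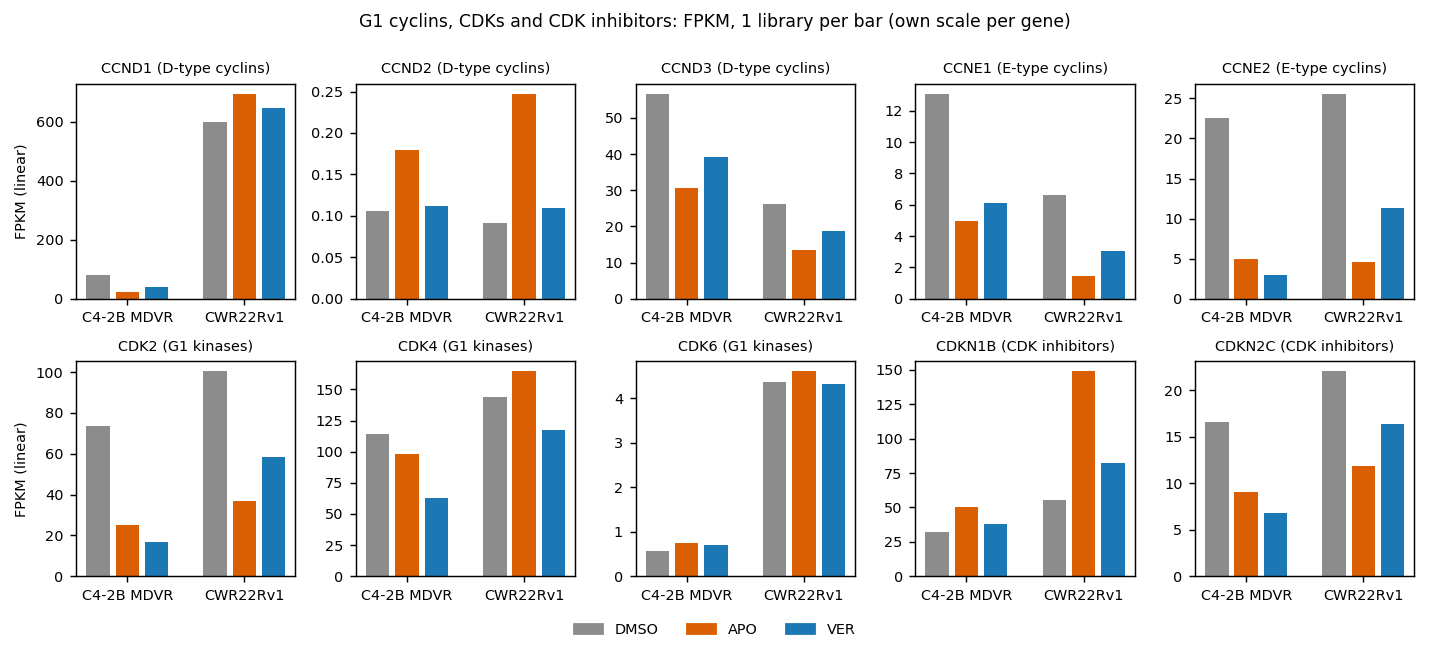
FPKM of each of the 10 genes (vertical axis, linear, own scale for each gene) in C4-2B MDVR and CWR22Rv1 with DMSO (grey), APO (orange) and VER (blue), 1 library a bar. The grey bar is the tallest of its line for CCND3, CCNE1, CCNE2, CDK2 and CDKN2C in both lines, and the shortest of its line for CDKN1B.

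In C4-2B MDVR with APO, 3 of the 10 genes were higher, against 37.7% of the 20122 genes tested, and 6 were lower, against 35.4%. Of the 6, 4 were lower by more than 2-fold (CCND1, CCNE1, CCNE2 and CDK2), where 13.3% of the genes tested were. With VER in the same line 1 gene was higher (35.6% of genes tested) and 7 were lower (34.9%), and 5 were lower by more than 2-fold (13.3%), namely CCND1, CCNE1, CCNE2, CDK2 and CDKN2C. The median log2 difference of the 10 genes was -0.88 with APO and -0.95 with VER, beside medians of 0 over all genes tested.

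In CWR22Rv1 with APO, 2 of the 10 were higher (35.6% of the 21608 genes tested) and 5 were lower (39.2%), 3 of them by more than 2-fold (16.8%). With VER in CWR22Rv1, 1 was higher (32.1%) and 6 were lower (32.3%), 2 of them by more than 2-fold (8.92%), namely CCNE1 and CCNE2. The medians of the 10 were -0.41 with APO and -0.36 with VER, beside -0.01 and 0.00 over all genes tested. In both lines the shares of the 10 genes that were lower lay above those of all genes, while the shares that were higher lay below them. Some gaps were small, such as 5 of 10 lower against 39.2% in CWR22Rv1 with APO. Another was 3 of 10 higher against 37.7% in C4-2B MDVR with APO. The 10 genes were chosen with earlier results of these data known, so the counts are a description only.

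The 2 lines share no library, and the same inhibitor can be set across them. With APO, 5 of the 10 were lower in both lines (CCND3, CCNE1, CCNE2, CDK2 and CDKN2C), beside 21.6% of the 18059 genes tested in both, and 2 were higher in both (CCND2 and CDKN1B), beside 21.3%. With VER, 6 were lower in both, the same 5 and CDK4, beside 18.2%, and 0 were higher in both, beside 17.9%.

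**Figure D2:**
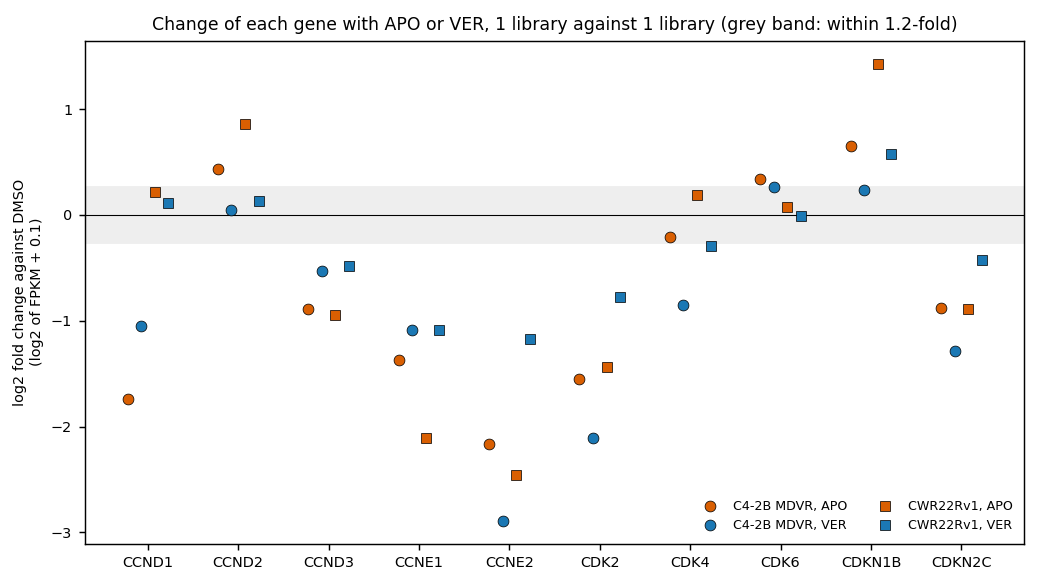
log2 difference of FPKM + 0.1 from DMSO (vertical axis) for the 10 genes with APO (orange) and VER (blue) in C4-2B MDVR (circles) and CWR22Rv1 (squares), 1 library against 1 library, with the range within 1.2-fold in grey. CCNE1, CCNE2, CDK2, CCND3 and CDKN2C lie below the band at all 4 points, while CCND1 lies below it at the circles, -1.74 and -1.05, and inside it at the squares.

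The upstream sequence of the genes was read from the RefSeq table for GRCh38.p14, which gives the 250 bases before and the 50 after a start. Windows were given for CCND3, CCNE1, CDK4, CDK6, CDKN1B and CDKN2C, 6 of the 10. They were searched on both strands for the E2F motif, spelled TTTGGCGC, TTTCCCGC, TTTGCCGC or TTTCGCGC, and for the CHR motif of mitotic genes, TTTGAA. None of the 6 windows held either, where 3.31% of all 35116 windows held the E2F motif and 15.2% the CHR motif. Of 20 S phase genes known as E2F targets, 11 of 17 windows held the E2F motif (64.7%), and of the RB and E2F family 5 of 11 (45.5%). That these letters are not in a window says only that, and a match is a description and not a site of binding.

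The windows of CCNE1 and CDKN2C, both lower in all 4 comparisons, were unlike each other, with a GC content over the whole window of 81.0% and 47 CG dinucleotides in CCNE1, and of 46.3% and 8 in CDKN2C. They are given up to the first base of the annotated gene, for CCNE1 chr19:29811741-29811897 and for CDKN2C chr1:50960495-50960744, both on the plus strand and with no motif in capitals. Beside them stand 30 bases with an E2F motif in capitals from CDC25A (chr3:48188443-48188472, minus strand, motif 44 bases before the start), E2F2 (chr1:23531257-23531286, minus strand, 42 bases before) and MCM3 (chr6:52284898-52284927, minus strand, 174 bases before), 3 genes lower by more than 2-fold in each comparison. The windows of CCNA2, CCNF, MYBL2, ORC1 and RRM2, also lower by more than 2-fold in each comparison, held no E2F motif. That of MCM2, likewise past 2-fold lower, held it.
CCNE1: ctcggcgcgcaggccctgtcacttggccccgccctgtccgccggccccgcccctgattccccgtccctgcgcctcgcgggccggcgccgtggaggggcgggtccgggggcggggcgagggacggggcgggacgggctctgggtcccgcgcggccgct
CDKN2C: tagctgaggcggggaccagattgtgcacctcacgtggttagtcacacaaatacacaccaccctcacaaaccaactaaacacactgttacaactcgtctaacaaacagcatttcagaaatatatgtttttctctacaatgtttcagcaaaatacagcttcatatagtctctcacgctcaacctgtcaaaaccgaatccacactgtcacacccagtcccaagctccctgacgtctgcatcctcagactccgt
CDC25A: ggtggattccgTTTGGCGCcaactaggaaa
E2F2: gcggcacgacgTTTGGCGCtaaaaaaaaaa
MCM3: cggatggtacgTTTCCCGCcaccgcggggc

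Among D-type cyclins, which carry growth signals to the cycle, CCND1 (ENSG00000110092, chr11:69641087-69654474 in GRCh38, plus strand) was measured in C4-2B MDVR at 78.9 FPKM under DMSO, 23.5 under APO and 38.1 under VER. In CWR22Rv1 it was measured at 598 FPKM under DMSO, 695 under APO and 647 under VER. All 3 CWR22Rv1 values thus lay far above all 3 of C4-2B MDVR, and the lowest and highest of the 6 libraries differed 29.5-fold. CCND1 stood above 92.2% of the 15913 protein-coding genes in C4-2B MDVR with DMSO, above 73.2% with APO and above 99.2% in CWR22Rv1 with DMSO. The log2 difference with APO was -1.74 in C4-2B MDVR and 0.22 in CWR22Rv1, and with VER -1.05 and 0.11. Of the genes tested in C4-2B MDVR, 4.56% had a lower difference than CCND1 with APO and 12.5% with VER. Rescaling the libraries to 1 FPKM sum moved the CWR22Rv1 value with APO to 0.33, past the 1.2-fold line, and leaving mitochondrial genes out of that sum moved it to 0.06.

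CCND3 (ENSG00000112576, chr6:41934933-42050357, minus strand), the D-type cyclin that pairs with the same kinases, was measured at 56.7 FPKM under DMSO, 30.6 under APO and 39.3 under VER in C4-2B MDVR. In CWR22Rv1 the values were 26.2, 13.5 and 18.7 FPKM in the same order. APO gave the lowest level in both lines, VER an intermediate one, and the log2 differences with APO were close, -0.89 in C4-2B MDVR and -0.95 in CWR22Rv1. With VER they were -0.53 and -0.48. CCND3 was therefore lower in CWR22Rv1, where CCND1 was not.

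CCND2 (ENSG00000118971, chr12:4273772-4305350, plus strand), the third D-type cyclin, was the lowest of the 10 genes in every library. In the order DMSO, APO, VER its FPKM was 0.106, 0.179 and 0.112 in C4-2B MDVR, and 0.0910, 0.247 and 0.109 in CWR22Rv1. These levels lie near the value of 0.1 added before the log, so its call as higher with APO in both lines, at log2 differences of 0.44 and 0.86, depends on that value, and both were within 1.2-fold when 1 was added instead (0.09 and 0.19).

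Within the D-type cyclins the share of each gene in the summed FPKM does not depend on how libraries are scaled to each other. CCND1 made up 58.2% of the sum in C4-2B MDVR under DMSO, 43.3% under APO and 49.2% under VER. CCND3 made up 41.7%, 56.4% and 50.7%, and so exceeded CCND1 with both inhibitors. In CWR22Rv1 CCND1 made up 95.8%, 98.1% and 97.2% of the sum in the same order, and CCND3 between 1.91% and 4.19%. The summed D-type cyclin level was 135.7, 54.3 and 77.6 FPKM in C4-2B MDVR and 624.6, 708.6 and 665.4 FPKM in CWR22Rv1.

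CCNE1 (ENSG00000105173, chr19:29811898-29824308, plus strand), an E-type cyclin that activates CDK2 at the start of S phase, was measured at 13.1 FPKM under DMSO, 4.99 under APO and 6.11 under VER in C4-2B MDVR. In CWR22Rv1 it was measured at 6.62, 1.46 and 3.07 FPKM. The lowest value of each line was that with APO. The log2 differences were -1.37 under APO and -1.09 under VER in C4-2B MDVR, and -2.11 and -1.09 in CWR22Rv1, so that the lines differed by 0.73 with APO and by 0.00 with VER.

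CCNE2 (ENSG00000175305, chr8:94879770-94896678, minus strand), the other E-type cyclin, was measured at 22.6 FPKM under DMSO, 4.95 under APO and 2.96 under VER in C4-2B MDVR. In CWR22Rv1 the values were 25.6, 4.57 and 11.3 FPKM. The DMSO and APO levels of the lines were thus alike in size, and the VER levels were not. The log2 difference with VER was -2.89 in C4-2B MDVR and -1.17 in CWR22Rv1, which is -1.72 apart, while with APO it was -2.17 and -2.46. In C4-2B MDVR 1.73% of the genes tested had a lower value than CCNE2 with VER and 2.74% with APO, and in CWR22Rv1 6.73% and 2.30%. INTS8, which CCNE2 overlaps on the opposite strand, lay between 25.2 and 40.9 FPKM, and whether the counting used strand is not stated.

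The summed E-type cyclin level was 35.7 FPKM in C4-2B MDVR with DMSO and 32.2 FPKM in CWR22Rv1 with DMSO, so the lines started from near the same sum. It was 9.95 FPKM under APO and 9.07 under VER in C4-2B MDVR, and 6.03 and 14.4 FPKM in CWR22Rv1. CCNE1 made up 36.7% of the sum in C4-2B MDVR under DMSO, 50.2% under APO and 67.4% under VER. In CWR22Rv1 its share stayed between 20.6% and 24.2%, so the make-up of the pair moved in one line and hardly in the other.

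**Figure D3:**
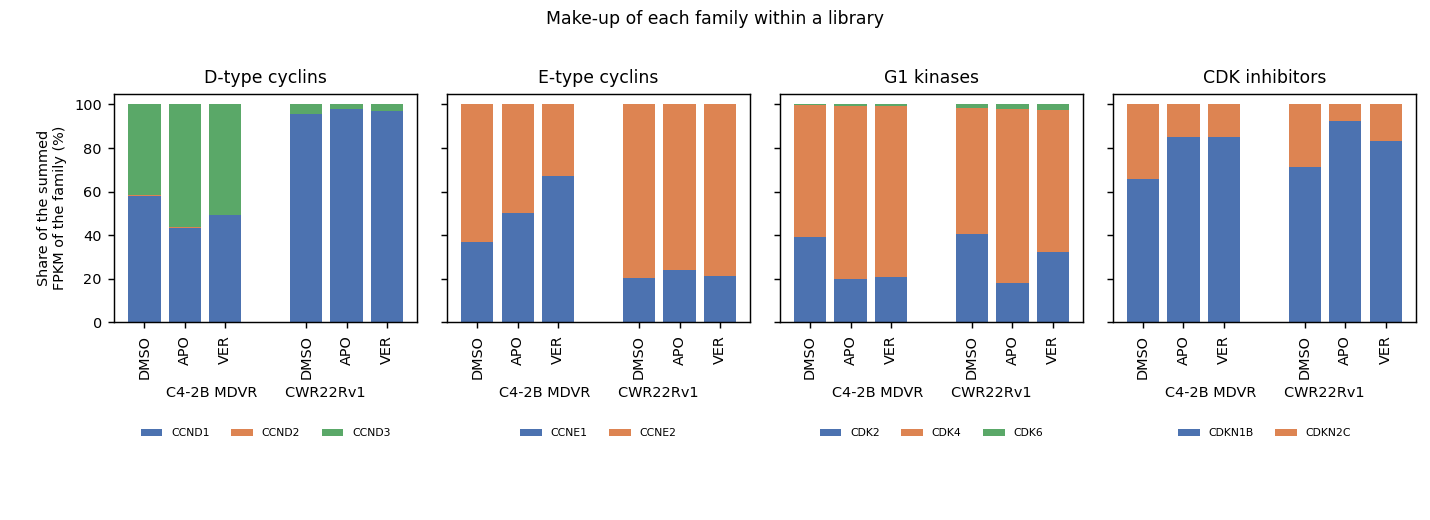
Share of each gene in the summed FPKM of its family (vertical axis, %), stacked for each of the 6 libraries, for D-type cyclins, E-type cyclins, G1 kinases and CDK inhibitors. CCND1 fills 95.8% to 98.1% of the D-type bars of CWR22Rv1 and 43.3% to 58.2% of those of C4-2B MDVR, and the share of CDK2 among the kinases is largest with DMSO in each line.

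CDK2 (ENSG00000123374, chr12:55966769-55972784, plus strand), the kinase of the E-type cyclins, was measured at 73.5 FPKM under DMSO, 25.0 under APO and 16.9 under VER in C4-2B MDVR. In CWR22Rv1 it was measured at 100.3, 37.0 and 58.5 FPKM. VER gave the lowest level in C4-2B MDVR and APO the lowest in CWR22Rv1, as for CCNE2. The log2 differences were -1.55 under APO and -2.11 under VER in C4-2B MDVR, and -1.43 and -0.78 in CWR22Rv1. The lines were thus -1.34 apart with VER and -0.12 apart with APO.

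CDK4 (ENSG00000135446, chr12:57747727-57756013, minus strand), a kinase of the D-type cyclins, was the most abundant of the 10 genes in every C4-2B MDVR library. It was measured there at 113.9 FPKM under DMSO, 98.4 under APO and 62.9 under VER, and in CWR22Rv1 at 143.9, 164.4 and 117.4 FPKM. VER gave the lowest CDK4 level in each line. The log2 difference with VER was -0.86 in C4-2B MDVR and -0.29 in CWR22Rv1, and with APO it was -0.21 and 0.19, both within 1.2-fold. On the scale of 1 FPKM sum the APO values became -0.36 and 0.31, and both then passed 1.2-fold, in opposite directions. TSPAN31, a neighbour that overlaps CDK4 on the opposite strand, was measured at 10.5, 24.4 and 19.9 FPKM in C4-2B MDVR and at 32.5, 55.0 and 65.3 in CWR22Rv1, and so stood higher with both inhibitors.

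CDK6 (ENSG00000105810, chr7:92604921-92836594, minus strand), the other kinase of the D-type cyclins, was measured in the same order at 0.570, 0.749 and 0.706 FPKM in C4-2B MDVR and at 4.35, 4.60 and 4.32 FPKM in CWR22Rv1. CDK6 was thus low in both lines, below CDK4 by 89.1-fold to 199.8-fold in C4-2B MDVR and by 27.2-fold to 35.7-fold in CWR22Rv1. Its log2 difference in CWR22Rv1 was 0.08 under APO and -0.01 under VER. In C4-2B MDVR they were 0.34 and 0.27, just past 1.2-fold, and fell to 0.16 and 0.12 when 1 was added before the log.

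Of the summed kinase level, CDK2 made up 39.1% under DMSO, 20.1% under APO and 21.0% under VER in C4-2B MDVR, and 40.4%, 18.0% and 32.5% in CWR22Rv1. CDK4 took up nearly all of the rest, 60.6%, 79.3% and 78.1% in C4-2B MDVR and 57.9%, 79.8% and 65.1% in CWR22Rv1. CDK2 was therefore lower than CDK4 in relative terms with each inhibitor, whatever the scaling between libraries.

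CDKN1B (ENSG00000111276, chr12:12715058-12722371, plus strand), which encodes p27, was measured at 32.2 FPKM under DMSO, 50.6 under APO and 38.0 under VER in C4-2B MDVR. In CWR22Rv1 it was measured at 55.1, 148.8 and 82.3 FPKM. Both lines had their highest value with APO and their lowest with DMSO. The ratio to DMSO was 1.57 under APO and 1.18 under VER in C4-2B MDVR, and 2.70 and 1.49 in CWR22Rv1, on the log2 scale 0.65, 0.24, 1.43 and 0.58. The VER value in C4-2B MDVR missed 1.2-fold, and rescaling the libraries to a median ratio of 1 placed it at 0.27, just past it. Of the genes tested in CWR22Rv1, 92.3% had a lower difference than CDKN1B with APO and 80.6% with VER.

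CDKN2C (ENSG00000123080, chr1:50960745-50974633, plus strand), an inhibitor of CDK4 and CDK6 and itself known to be transcribed by E2F, was measured at 16.6, 9.02 and 6.76 FPKM in C4-2B MDVR and at 22.0, 11.8 and 16.4 FPKM in CWR22Rv1. It stood lower with both inhibitors, opposite to CDKN1B. The log2 differences were -0.88 under APO and -1.29 under VER in C4-2B MDVR, and -0.89 and -0.43 in CWR22Rv1. The share of CDKN1B in the summed level of both inhibitors was 65.9%, 84.9% and 84.9% in C4-2B MDVR and 71.4%, 92.6% and 83.4% in CWR22Rv1.

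The level of CDKN1B for each unit of CDK2, a ratio chosen after the values were seen, was 0.439 under DMSO, 2.03 under APO and 2.25 under VER in C4-2B MDVR. In CWR22Rv1 it was 0.550, 4.02 and 1.41. The mRNA of the inhibitor was below that of the kinase in both DMSO libraries and above it in all 4 libraries with an inhibitor of HSP70. For each unit of E-type cyclin the level of CDKN1B was 0.903, 5.08 and 4.20 in C4-2B MDVR and 1.71, 24.7 and 5.73 in CWR22Rv1. These are ratios of mRNA levels, and protein was not measured in these libraries.

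**Figure D4:**
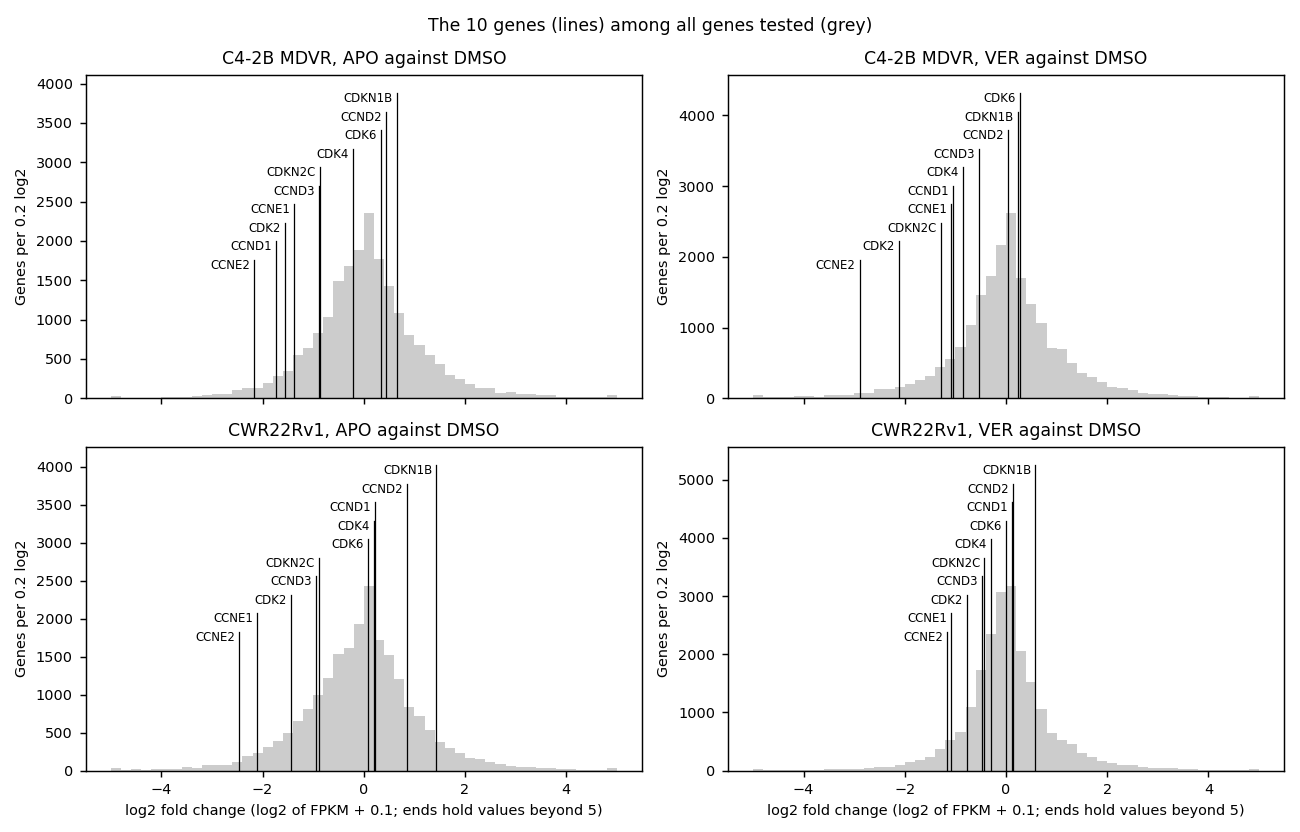
Number of genes tested (vertical axis, genes per 0.2 log2) by log2 difference from DMSO (horizontal axis), in grey, for APO and VER in each line, with the 10 genes as named lines whose height carries no value. CCNE2 is the leftmost line in all 4 panels, from -2.89 to -1.17, and CDKN1B is the rightmost in the panels of CWR22Rv1 and in that of C4-2B MDVR with APO.

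APO and VER were given at the same dose and time and can be compared directly. In C4-2B MDVR, 3 of the 10 genes were higher with VER than with APO (CCND1, CCND3 and CCNE1), where 28.5% of the genes tested were, and 6 were lower, where 32.5% were. In CWR22Rv1, 5 were higher with VER (CCND3, CCNE1, CCNE2, CDK2 and CDKN2C), where 37.3% were, and 3 were lower (CCND2, CDK4 and CDKN1B), where 34.5% were. The medians of the 10 were -0.40 in C4-2B MDVR and 0.19 in CWR22Rv1, beside -0.02 and 0 over all genes tested. On the scale of 1 FPKM sum these medians were -0.26 and 0.01.

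CCNE2, CDK2 and CDKN2C lay on opposite sides in the 2 lines. The log2 difference of VER from APO was -0.73 for CCNE2 in C4-2B MDVR and 1.29 in CWR22Rv1. For CDK2 it was -0.56 and 0.66, and for CDKN2C it was -0.41 and 0.46. VER thus gave the lower level of these genes in C4-2B MDVR and APO the lower level in CWR22Rv1. For CDKN1B the difference was -0.41 and -0.85, and for CDK4 -0.64 and -0.49, so both stood lower with VER in each line. With equal FPKM sums without mitochondrial genes, the values of CDKN2C and CDKN1B in C4-2B MDVR came within 1.2-fold. None of these differences could be tested with 1 library a condition.

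With DMSO alone, 2 of the 10 genes were higher in C4-2B MDVR than in CWR22Rv1, CCND3 by 1.11 and CCNE1 by 0.97 on the log2 scale, where 35.5% of the 23671 genes tested were. Lower in C4-2B MDVR were 6 genes, where 39.9% were. Of these, CCND1 was 7.58-fold and CDK6 7.64-fold higher in CWR22Rv1, while CDK2, CDK4, CDKN1B and CDKN2C differed by log2 values of -0.34 to -0.77. CCND2 and CCNE2 were within 1.2-fold between the lines, at 0.11 and -0.18. Of the 10 genes the lines thus differed most in CCND1 and CDK6, at log2 values of -2.92 and -2.73. CDK6 was at only 0.570 FPKM in C4-2B MDVR.

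The genes around these 10 were taken in 8 lists by role. The 4 comparisons are given throughout in the order C4-2B MDVR APO, C4-2B MDVR VER, CWR22Rv1 APO, CWR22Rv1 VER. Of all genes tested, 37.7%, 35.6%, 35.6% and 32.1% were higher and 35.4%, 34.9%, 39.2% and 32.3% were lower. Their medians were 0, 0, -0.01 and 0.00. Some counts below lay near these shares, and all are a description only. Of 5 other CDK inhibitors, 3, 2, 5 and 3 were higher and 1, 1, 0 and 1 were lower, with medians of 0.60, 0.17, 0.72 and 0.48. CDKN1A, the p21 inhibitor that p53 is known to induce, was measured at 54.5 FPKM under DMSO, 232 under APO and 855 under VER in C4-2B MDVR, and at 41.3, 172 and 359 FPKM in CWR22Rv1. Its level was highest with VER in both lines, whereas that of CDKN1B was highest with APO. CDKN2A, which encodes the CDK4 inhibitor p16 and ARF, was measured at 16.3, 13.0 and 5.29 FPKM in C4-2B MDVR and at 62.9, 75.7 and 53.0 FPKM in CWR22Rv1.

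Of 14 genes for the breakdown of cyclins and p27, 4, 3, 4 and 1 were higher and 3, 7, 6 and 5 were lower, with medians of 0.03, -0.21, -0.07 and -0.19. SKP2, the ubiquitin ligase subunit that marks p27 for breakdown, had the lowest mean of the list, at 18.5, 4.80 and 5.07 FPKM in C4-2B MDVR and 29.9, 15.2 and 21.0 FPKM in CWR22Rv1. Both inhibitors thus left SKP2 lower in each line. FBXO4, an F-box protein linked to cyclin D1, had the highest mean, with log2 differences of 1.01, 0.71, 0.67 and -0.18.

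Of 10 genes that activate or fold CDKs, 2, 0, 4 and 1 were higher and 6, 7, 4 and 7 were lower, with medians of -0.52, -1.36, -0.09 and -0.51. CDC25A, the phosphatase that activates CDK2, differed by -2.53, -2.19, -1.39 and -1.11 on the log2 scale. PKMYT1, a kinase that inhibits CDK1, differed by -1.62, -3.15, -1.98 and -1.08. An activator and an inhibitor of CDKs therefore both stood more than 2-fold lower in every comparison. MNAT1, a subunit of the CDK-activating kinase, had the highest mean of the list, at 0.56, -0.16, 1.46 and 0.00.

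Of 13 RB and E2F family genes, 2, 1, 3 and 1 were higher and 8, 10, 9 and 8 were lower, with medians of -0.60, -0.97, -0.82 and -0.48. E2F2, an activating E2F, differed by -2.20, -2.64, -2.07 and -1.22, and E2F8, a repressing one, by -2.39, -3.86, -1.63 and -1.74. RBL2, the RB relative of resting cells, had the highest mean, at 0.35, 1.01, 0.17 and 0.71.

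All 20 of the S phase E2F targets were lower in each of the 4 comparisons, with medians of -1.59, -2.22, -1.50 and -0.90, and 17, 20, 17 and 7 of them were lower by more than 2-fold. RRM2, a subunit of the reductase that makes deoxynucleotides, had the lowest mean, at 78.6, 14.5 and 2.70 FPKM in C4-2B MDVR and 105.2, 30.2 and 30.2 FPKM in CWR22Rv1. Also past 2-fold in each comparison were MCM2, MCM3 and MCM5 of the replicative helicase, ORC1 of the origin recognition complex and the factor MYBL2. RRM1, the partner of RRM2, had the highest mean, with log2 differences of -0.87, -1.42, -0.69 and -0.75. VER stood below APO for 16 of the 20 in C4-2B MDVR (32.5% of genes tested) and above it for 1 (28.5%). In CWR22Rv1 it stood above APO for 14 (37.3%) and below it for 1 (34.5%), the same contrast between lines as for CCNE2 and CDK2. On equal FPKM sums the median of VER against APO over genes past 1 FPKM went from -0.03 to 0.11 in C4-2B MDVR. That of CWR22Rv1 went from -0.02 to -0.20, so both shifts ran against this contrast.

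Of 6 cyclins of S, G2 and M phase and CDK1 that passed the filter, of 7 listed, 1, 0, 0 and 0 were higher and 4, 5, 4 and 6 were lower, with medians of -0.83, -2.72, -0.90 and -1.30. CCNA2, the S phase cyclin, was measured at 22.7, 6.91 and 1.30 FPKM in C4-2B MDVR and at 52.7, 26.3 and 21.3 FPKM in CWR22Rv1. CCNB2, a mitotic cyclin, had the highest mean and was within 1.2-fold with APO, at -0.25 in C4-2B MDVR and 0.11 in CWR22Rv1, but differed by -2.82 and -1.14 with VER. CCNB2 was thus called lower with VER and not with APO, while CCNE1 and CCNE2 were called lower with both. The APO value of CCNB2 in C4-2B MDVR lay close to the 1.2-fold line. On equal FPKM sums the median over genes past 1 FPKM in that comparison was -0.12, so this call depends on the scaling. CCNF, a cyclin that acts in an ubiquitin ligase, was lower by more than 2-fold in each comparison, by 1.14 to 2.33 on the log2 scale.

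Of 11 regulators of the cyclin D and p27 genes, 4, 5, 7 and 2 were higher and 3, 5, 2 and 2 were lower, with medians of 0.04, 0.20, 0.31 and -0.11. FOXM1, a factor of proliferating cells, had the lowest mean, at -1.19, -2.46, -1.22 and -1.39, and DDIT3, a factor of the unfolded protein response, the highest, at 4.55, 3.32, 3.93 and 1.34. Of 15 other CDKs and cyclins that act outside G1, 7, 4, 8 and 3 were higher and 3, 4, 2 and 3 were lower, with medians of 0.17, 0.11, 0.36 and 0.06. CCNG1, a cyclin known as a p53 target, had the highest mean, at 0.82, 1.56, 0.78 and 1.66, and CDK12, a kinase of RNA polymerase, the lowest, at -0.30, -0.50, -0.53 and -0.55. The median of this list thus lay above 0 in each comparison.

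**Figure D5:**
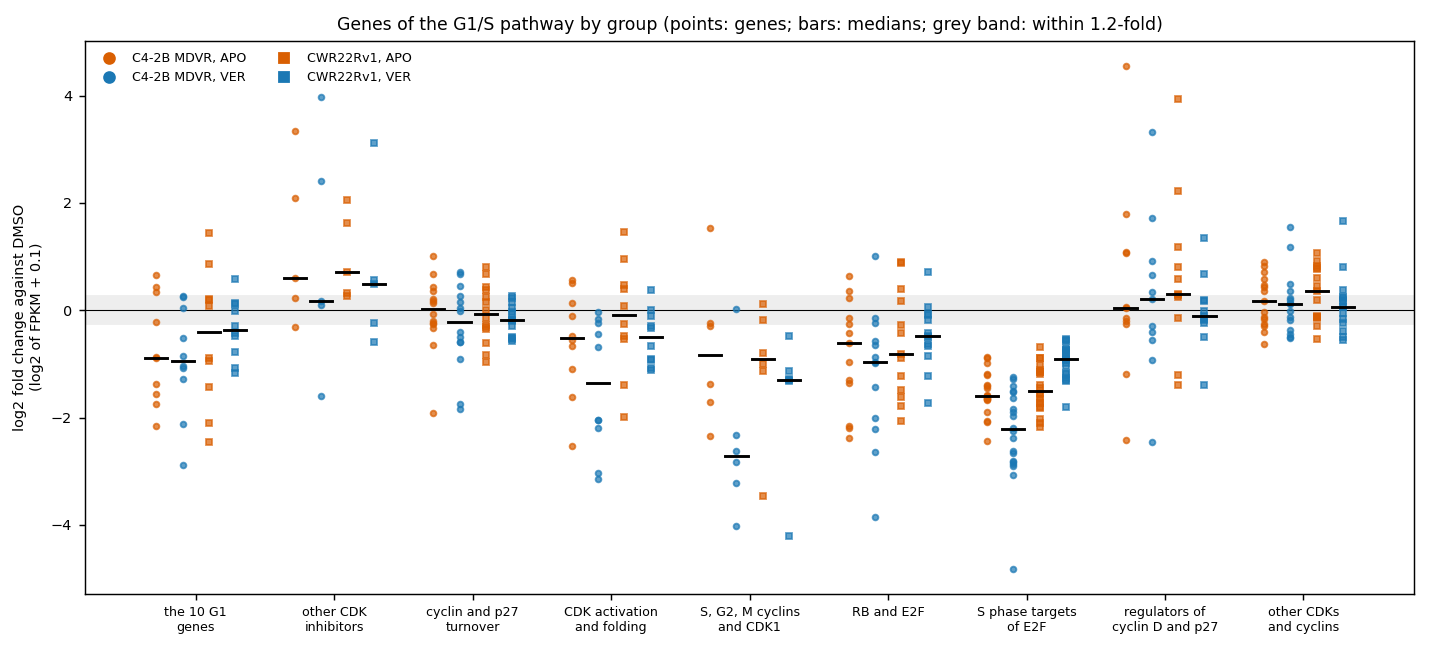
log2 difference of FPKM + 0.1 from DMSO (vertical axis) for the 10 genes and for the genes of the 8 lists by role with a mean above 0.1 FPKM, a point a gene, with medians as bars and the range within 1.2-fold in grey. All points of the S phase E2F targets lie below the band in the 4 comparisons, while the medians of the other CDKs and cyclins lie between 0.06 and 0.36.

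The genes whose pattern over the 6 libraries was most like each of the 10 were sought among 12279 protein-coding genes whose mean level was 1 FPKM or more, by the root mean square of the difference in centred log2 level. For CCNE2 they were MCM4 (0.15), TONSL (0.22) and ATAD5 (0.24), and for CDK2 CDT1 (0.11), ZWINT (0.12) and TYMS (0.13). For CDKN2C they were DHX15 (0.04) and FANCG (0.09), and for CCNE1 SLC19A1 (0.15), ERVMER34-1 (0.18) and MAP3K6 (0.21).

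For CCND1 the nearest genes were RAC2 (0.27) and PLIN2 (0.31), both low in C4-2B MDVR, so that no gene came as near to it as to CDK2. For CCND3 they were KLHL25 (0.07), PAQR5 (0.08) and CABIN1 (0.10), for CDK4 WAPL (0.04), NXT1 (0.08) and CCT7 (0.10), and for CDK6 ZNF503 (0.16), PGBD1 (0.19) and C16orf86 (0.20). For CDKN1B they were TBC1D15 (0.06), ANAPC10 (0.10), a subunit of the anaphase-promoting complex, and C4orf33 (0.12). The measure describes 6 libraries and is no test.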

How the data were processed

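RNA of 2 cell lines under 3 conditions was sequenced, with 1 library a condition, and samples were grouped by their labels. The authors deposited 1 FPKM value per gene and library. The submitters' processing notes name HISAT, Cufflinks, Cuffnorm and GRCh38, and no version. The annotation release and the use of strand in counting are not given in the sources used here, the labels name a stranded mRNA kit and the study's methods another kit. FPKM carries no read totals, so whole reads, intervals and count tests were not used, and depth is given only relative to 1 library, from the steps between low values.

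Identifiers were matched to GENCODE 29 (57047 of 60658), from which symbols and coordinates come. Differences of log2(FPKM + 0.1) were computed for genes above 0.1 FPKM in at least 1 library of the line (of all 6 between lines), on all such genes, and called past 1.2-fold, the fold threshold the study used. The script was tested on simulated data. Alternatives were pseudocounts of 0.01 and 1, no filter, a filter of 1 FPKM, 3 rescalings and thresholds of 1.5-fold and 2-fold. From each list the genes named are those of highest and lowest mean difference, and those past 2-fold one way in all 4 comparisons. The genes of most like pattern are the 3 nearest, of which a few, like some markers, are not reported here. The 10 genes and the lists were chosen with earlier results of these data known. Python 3.11.15, pandas 2.3.3, numpy 2.4.6 and matplotlib 3.10.9 were used.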

Additional observations from a re-analysis of the deposited data

Results flagged for a closer look

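The 10 genes, the genes named from the lists, the genes of most like pattern and the overlapping neighbours named were searched. Without rescaling, 3 passed 1.2-fold in opposite directions in the 2 lines with the same inhibitor, and none of the 10 was among them. On the scale of 1 FPKM sum, CCND1 and CDK4 with APO also passed it in opposite directions. The CWR22Rv1 values of CDKN2A and INTS8 lay close to the 1.2-fold line, so which genes are listed depends on the scaling. CDKN2A, the gene of p16 and ARF, had a log2 difference with APO of -0.32 in C4-2B MDVR (16.3 FPKM with DMSO and 13.0 with APO) and of 0.27 in CWR22Rv1 (62.9 and 75.7 FPKM), which is -0.59 apart. PLIN2, which coats lipid droplets, was measured at 0.484 FPKM with DMSO and 0.0828 with APO in C4-2B MDVR and at 2.82 and 4.76 FPKM in CWR22Rv1, so that its log2 differences were -2.41 apart. INTS8, which overlaps CCNE2, was measured at 36.5 FPKM with DMSO and 27.6 with VER in C4-2B MDVR and at 33.9 and 40.9 FPKM in CWR22Rv1, which is -0.68 apart. These differences were not tested, since there was 1 library a condition.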

How the results depend on the processing

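No direction of a called value reversed under any alternative run. Under the pseudocounts, filters and rescalings, 459 values of single members kept their side of the 1.2-fold line, 12 fell within it and 9 came past it. Under the stricter thresholds 56 called values no longer passed. With pseudocount 1 the median of the 10 genes for VER against APO in C4-2B MDVR was -0.23, and with equal FPKM sums without mitochondrial genes -0.24, both within 1.2-fold. In CWR22Rv1 the median for VER against APO passed 1.2-fold without mitochondrial genes (0.28) and with a filter of 1 FPKM (0.46). That filter leaves out CCND2, which reached at most 0.247 FPKM, so the latter median is not over all 10 genes. Past 1.5-fold there were 3 of the 10 in CWR22Rv1 with VER (7 past 1.2-fold), 3 in C4-2B MDVR for VER against APO (9), 5 in CWR22Rv1 for VER against APO (8) and 5 between the lines (8). The medians of -0.41 (CWR22Rv1 with APO), -0.36 (CWR22Rv1 with VER), -0.40 (VER against APO in C4-2B MDVR) and -0.37 (between the lines) are within 1.5-fold. Past 2-fold there were 4 and 5 of the 10 in C4-2B MDVR with APO and VER (9 and 8 past 1.2-fold), 4 and 2 in CWR22Rv1 (7 and 7), 0 and 2 for VER against APO in C4-2B MDVR and CWR22Rv1, and 3 between the lines. The medians of -0.88 and -0.95 in C4-2B MDVR and those just given are within 2-fold. A stricter threshold by its construction passes fewer genes. The counts past it are given without the shares of all genes tested, and so say nothing of the 10 beside other genes. Apart from the loss of CCND2 under the 1 FPKM filter, the cause of the other moves was not tested. On equal FPKM sums the median difference over genes past 1 FPKM went from 0.02 to -0.12 in C4-2B MDVR with APO and from -0.02 to -0.20 for VER against APO in CWR22Rv1, and without mitochondrial genes it went from -0.01 to -0.16 in CWR22Rv1 with APO. No paired analysis was possible because each condition has 1 library and no replicate number, and leaving out a replicate was not possible. Low levels limit what can be read of CCND2 and CDK6, and CCNE1 was also low in CWR22Rv1 with APO, at 1.46 FPKM.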
